A study of Drosophila melanogaster with 18 samples.

Results

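The genes described here encode the Mediator complex of Drosophila melanogaster. They were taken from the table of ovary RNA by name, as every gene whose FlyBase symbol is MED followed by a number, together with skd, kto, Cdk8 and CycC, which gave 29 of the 15682 genes of the table. By general knowledge of the complex, 7 of them encode head subunits, 9 middle subunits, 1 the scaffold subunit MED14, 8 tail subunits and 4 the kinase module. All 29 passed the filter on low values, a mean of at least 1 RPKM, in each comparison. RPKM is the number of reads on a gene scaled by the length of the gene in kilobases and by the size of the library.

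Mediator is a large coactivator that carries signals from DNA-bound transcription factors to RNA polymerase II at promoters. Its head and middle contact the polymerase, its tail is the main landing place for activators, and MED14 runs through the complex and joins these parts. The kinase module docks onto the core reversibly and keeps the polymerase from binding while it is docked. It holds the kinase Cdk8, its cyclin CycC, Kto (the fly MED12), which activates the kinase, and Skd (the fly MED13), which ties the module to the core. In the fly, skd and kto affect eye, wing and leg patterning. SAGA, the complex mutated in these flies, is another coactivator, with a histone acetyltransferase module and a deubiquitinase module that removes ubiquitin from histone H2B.

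The libraries held poly(A) RNA of whole ovaries and came from 3 experiments, each with 3 mutant and 3 FRT control libraries, 18 in all. The mutant groups were ada2b, a subunit of the acetyltransferase module, and Ataxin-7 and non-stop, both of the deubiquitinase module, and each experiment had an FRT control that its labels call wild type. Flies of all 6 groups were raised at 25 °C, the larvae were given a heat shock of 37 °C for 2 h on 2 days to induce germline clones, and adult females spent 2 to 3 days on yeast before the ovaries were taken. In such clones the germ cells are homozygous for the mutation while the follicle cells and the ovary muscle around them need not be, so each library mixes mutant germ cells with other cells. The alleles, the arm that carried the FRT site and the age of the flies were not given in the sources used here, and the extraction protocol names biological triplicates.

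Reads on genes ranged from 22608290 to 42018396 per library, the lowest being ada2b replicate 1, and no Mediator gene had fewer than 230 reads in a library. The mutated gene was looked up first. Ada2b stood at 6.17 to 8.75 RPKM in ada2b ovaries and 44.4 to 46.5 in FRT ovaries, and non-stop (symbol not) at 1.52 to 1.82 RPKM in non-stop ovaries and 17.9 to 24.0 in FRT ovaries. Atxn7, the gene of Ataxin-7, went the other way, with 12.4 to 12.5 RPKM in the libraries labelled Ataxin-7 against 7.59 to 7.92 in their FRT control, a log2 fold change of 0.63. These libraries are therefore called by their label, and each direction given for them rests on that label. Germline markers such as osk, grk and aub were present in every group, with summed levels from 244 to 691 RPKM, while the 4 nervous system markers stayed under 1 RPKM in sum.

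The way reads were counted bears on several of these genes. Every value in the table was a whole number of reads divided by a length and a library total, and for 16 of the 29 genes that length equalled the gene span in the BDGP6.54 annotation, introns included. Where a gene lay wholly within the exons of another gene on the same strand, its reads per base matched those of the enclosing gene, with a median ratio of 1 over 159 pairs. On opposite strands the median ratio was 0.00272 over 28 such pairs, and 21 of them (75%) had a ratio under 0.1. In most pairs examined, reads were thus assigned by strand and given to every gene they overlapped on it. MED9 had exactly the same read count as CG42518 in 18 of 18 libraries, from 984 to 2405, since its whole span lies within that gene on the same strand of arm 2R, and the 2 cannot be told apart. MED31 lies inside the span of slx1 on arm 3R, and its own reads equalled 84.7% to 94.1% of those counted for slx1. The values of MED9 thus belong to a pair of genes, and those of slx1 mostly to MED31. The span of MED26 holds annotated transposable elements on its own strand, the longest a Tc1 element of 1310 bp. None of them has values of its own here, and whether their reads were counted for MED26 was not tested.

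To compare levels between the genes, RPKM was recomputed per kilobase of annotated exons, since skd and MED26 are 2.81 and 2.06 times longer as spans than as exons. On this exon scale the FRT control of ada2b ran from 66.7 ± 1.91 RPKM for MED19 (SD, n = 3), at the top, to 7.60 ± 0.793 for MED16, a ratio of 8.78. The ratio of highest to lowest was 12.2 in the FRT control of Ataxin-7 and 6.89 in that of non-stop. MED9, MED19, MED21 and MED31 stood among the highest 5 in all 3 FRT groups and MED16, MED23 and MED25 among the lowest 5. Of the 28 neighbours in this order, 17 overlapped in their libraries in the FRT control of ada2b, 17 in that of Ataxin-7 and 25 in that of non-stop, so most adjacent ranks are not separated. The submitters scaled each experiment on its own, and levels are compared only within an experiment.

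The ada2b comparison asks how the RNA of these genes differs in ovaries mutant for a subunit of the acetyltransferase module. Most of the complex fell. Of the 29 genes, 24 were lower in ada2b ovaries and 0 higher at a Benjamini-Hochberg adjusted p under 0.05 in limma, and all 29 log2 fold changes were below 0. At an unadjusted p under 0.05, and with limma voom on the reads, 0 were higher as well. Over all genes tested 42.3% fell and 25.6% rose. The median log2 fold change of the 29 genes was -0.48, against -0.13 over all genes tested. Those not called were MED4, MED7, MED9, MED16 and MED23.

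**Figure D1:**
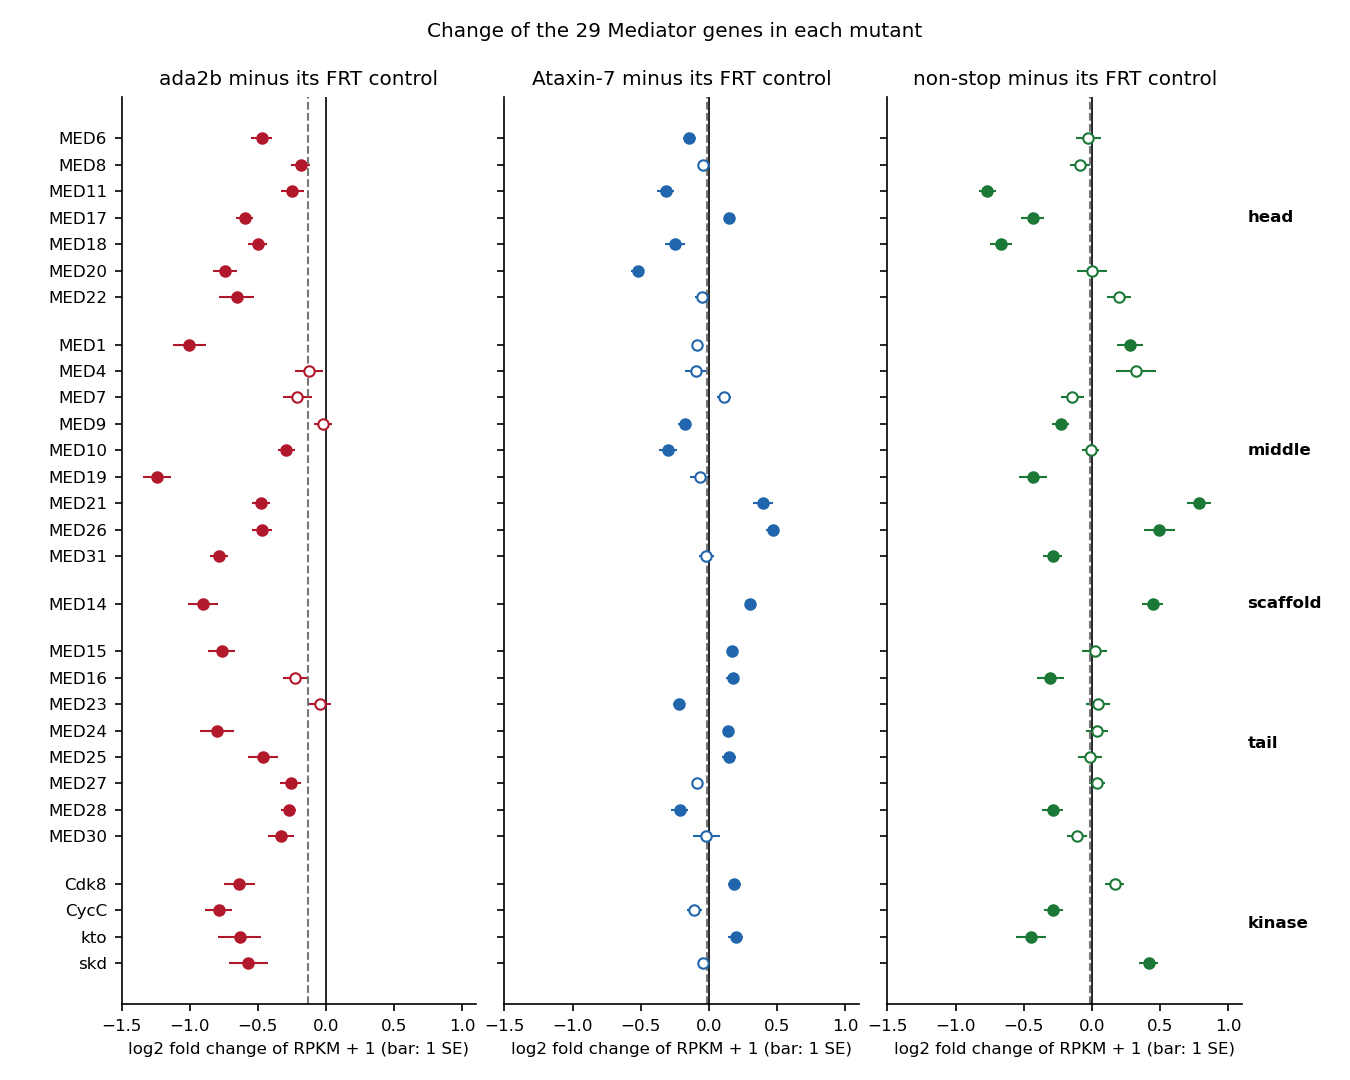
Log2 fold change of RPKM + 1, mutant minus FRT control, of the 29 Mediator genes by module in the 3 experiments. Circles are estimates of limma with bars of 1 SE, filled circles passed an adjusted p under 0.05, and the dashed line is the median of all genes tested. In ada2b all 29 circles lie below 0 and 24 are filled, while in Ataxin-7 and non-stop they lie on both sides.

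MED19, a middle subunit through which Hox and GATA factors act in flies, had the deepest fall. It was at 16.2, 19.7 and 21.2 RPKM in ada2b ovaries, against 44.5, 46.8 and 46.8 in FRT ovaries. The genes of this paragraph were picked among called genes whose groups did not overlap. The log2 fold change of MED19 was -1.24 ± 0.10 (SE, n = 3 per group), with an adjusted p of 0.000112 in limma. In the order of exon levels it stood first in the FRT control and 9th in the mutant. MED1, the subunit that nuclear receptors bind in mammals, followed at 8.85, 12.4 and 11.9 RPKM in ada2b ovaries, against 23.0, 23.5 and 22.2 in FRT ovaries. Its log2 fold change was -1.002 ± 0.12 (adjusted p = 0.000512, limma). The scaffold gene MED14 had 8.47, 11.2 and 11.3 RPKM in ada2b ovaries, against 20.6, 19.7 and 19.6 in FRT ovaries. Its log2 fold change was -0.90 ± 0.11 (adjusted p = 0.000541, limma). For MED19, MED1 and MED14 alike, replicate 1, the shallowest library, was the lowest of the ada2b libraries.

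All 7 head genes fell in ada2b ovaries, from -0.74 for MED20 to -0.19 for MED8, with MED17, at the centre of the head, at -0.60. Over all genes tested 42.3% were lower. In the middle 6 of 9 fell, where MED31 at -0.79 followed MED19 and MED1. The tail had 6 of 8 lower, led by MED24 at -0.80 and by MED15, whose yeast counterpart binds activators, at -0.77. The 3 called genes with the smallest falls and groups that did not overlap were MED8, MED11 and MED27. MED8, a head subunit, had 29.9, 28.1 and 30.4 RPKM in ada2b ovaries, against 36.0, 31.9 and 33.0 in FRT ovaries, a gap between the nearest libraries smaller than the spread within either group. MED11, which pairs with MED22 in the head, had 14.7, 12.02 and 12.7 RPKM in ada2b ovaries, against 16.3, 16.0 and 14.9 in FRT ovaries. MED27, of the tail, had 15.1, 13.7 and 15.8 RPKM in ada2b ovaries, against 18.8, 18.3 and 17.1 in FRT ovaries. The log2 fold changes were -0.19 ± 0.07, -0.25 ± 0.09 and -0.26 ± 0.07, with adjusted p of 0.0472, 0.0409 and 0.0192 in limma. The calls of MED8, MED11 and MED27 were lost in 10, 8 and 4 of 16 alternative settings.

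**Figure D2:**
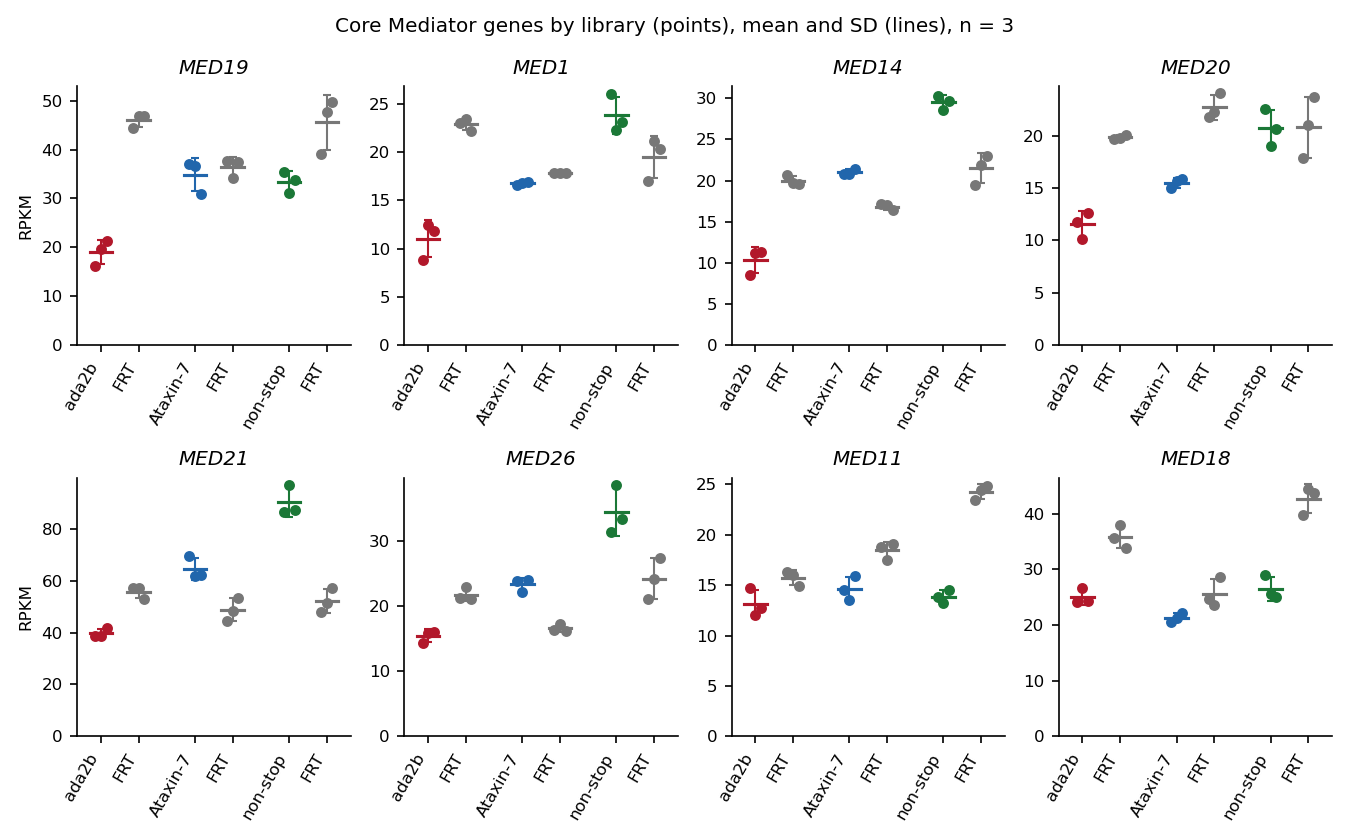
RPKM of 8 core Mediator genes in each of the 18 libraries, with 3 mutant libraries (coloured) left of the 3 FRT libraries (grey) of the same experiment, and lines for the mean and SD. MED19, MED1 and MED14 are low in ada2b, MED20 is low in ada2b and Ataxin-7, MED21 and MED26 are high in Ataxin-7 and non-stop, and MED11 and MED18 are low in non-stop.

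The kinase module fell as a whole in ada2b ovaries, with 4 of 4 genes called lower, where 42.3% of all genes tested were lower. CycC had 17.4, 14.0 and 17.5 RPKM in ada2b ovaries, against 27.8, 30.5 and 28.0 in FRT ovaries, a log2 fold change of -0.79 ± 0.10 (adjusted p = 0.000551, limma). Cdk8 had 7.42, 8.47 and 9.89 RPKM, against 12.5, 15.04 and 14.1 in FRT ovaries, a log2 fold change of -0.64 ± 0.12 (adjusted p = 0.0028, limma). The large subunits moved by similar amounts. For kto the values were 4.13, 6.92 and 6.03 RPKM in ada2b ovaries and 8.91, 9.67 and 9.08 in FRT ovaries, a log2 fold change of -0.63 ± 0.16 (adjusted p = 0.0115, limma). For skd they were 2.69, 4.16 and 4.02 RPKM in ada2b ovaries and 5.48, 5.74 and 6.16 in FRT ovaries, a log2 fold change of -0.57 ± 0.14 (adjusted p = 0.0106, limma). Every ada2b library was below every FRT library for all 4, and replicate 1 was lowest for Cdk8, kto and skd. The share of all genes without such an overlap was not counted.

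How many of these genes fell depends on the scale. When each library was scaled to a common median, the median of all genes tested moved from -0.13 to 0.12, a shift of over 0.1, and 15 of the 29 Mediator genes were lower and 2, MED9 and MED23, higher. Under this scaling 41% of all genes rose and 27.9% fell, so that higher genes made up 59.5% of all calls, against 37.7% as deposited and 47.7% with quantile normalization. The median of the Mediator genes minus that of all genes was -0.34 as deposited, a distance that common-median scaling cannot move, and -0.30 with quantile normalization. The falls of 15 genes, MED1, MED6, MED14, MED15, MED17, MED18, MED19, MED20, MED21, MED22, MED24, MED26, MED31, Cdk8 and CycC, passed the test in all 16 alternatives. MED8 and MED11 changed sign under common-median scaling, to 0.0675 and 0.00699, and 7 others kept their sign but missed the threshold there. Of these kto was at -0.38, skd at -0.32 and MED25 at -0.21, while MED30, MED10, MED28 and MED27 lay nearer 0, at -0.08, -0.04, -0.02 and -0.01. Without ada2b replicate 1, 26 genes were lower and the median was -0.43.

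**Figure D3:**
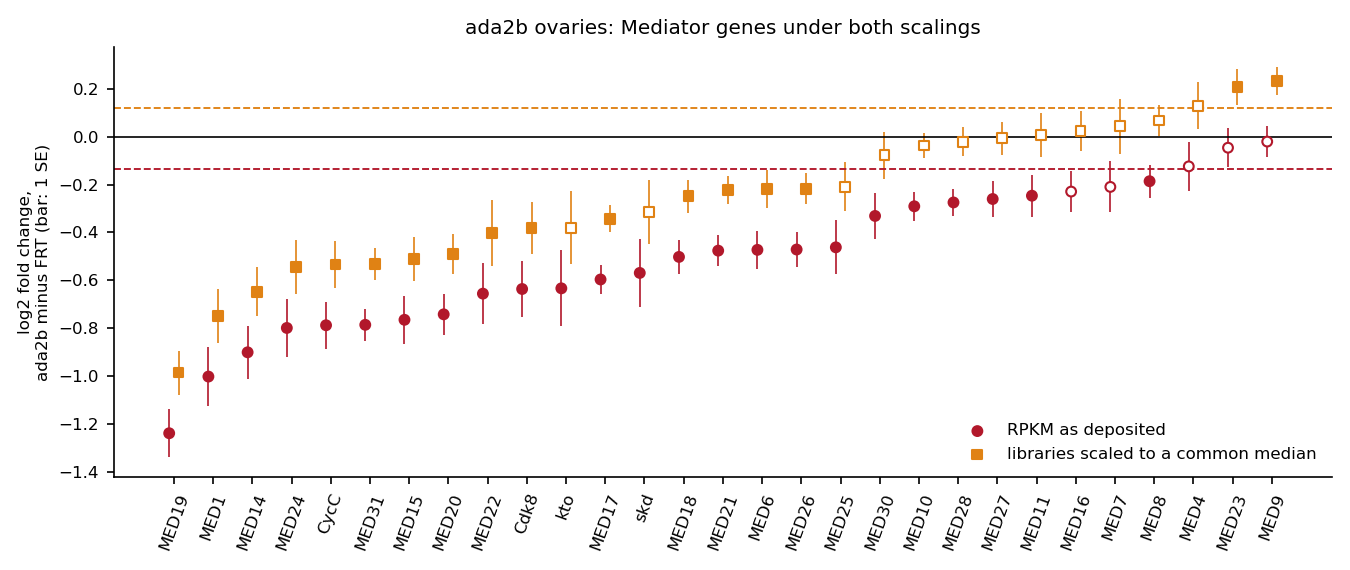
Log2 fold change, ada2b minus FRT, of the 29 Mediator genes with RPKM as deposited (circles) and with libraries scaled to a common median (squares), with bars of 1 SE. Filled symbols passed an adjusted p under 0.05, and dashed lines are the medians of all genes, -0.13 and 0.12. MED19, MED1 and MED14 are lowest on both scales, and MED9 and MED23 are filled above 0 only after rescaling.

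Other genes of the transcription machinery were counted from a fixed list. The subunits of RNA polymerase II itself did not fall together in ada2b ovaries, with 4 of 12 higher, 3 lower and a median of 0.06. Polr2E, a subunit shared by the 3 nuclear polymerases, was at 69.8 ± 9.11 RPKM in ada2b ovaries and 35.4 ± 2.93 in FRT ovaries, and Polr2B, the second largest subunit, at 34.1 ± 3.11 RPKM in ada2b ovaries and 59.5 ± 3.45 in FRT ovaries (SD, n = 3 each). The general transcription factors resembled Mediator in direction. Of their 16 genes 11 fell and 0 rose (0 also at an unadjusted p under 0.05 and with limma voom), with a median of -0.58. Mat1, CycH and Cdk7, which form the kinase of TFIIH, had log2 fold changes of -1.12, -0.92 and -0.66, and Tbp, the TATA-binding protein, -0.99. The gene ix, which encodes MED29 but lacks a MED symbol, was at 13.2 ± 1.28 RPKM in ada2b ovaries and 27.9 ± 0.626 in FRT ovaries, a log2 fold change of -1.03 (adjusted p = 9.39e-05, limma).

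Markers of several cell types moved in the same libraries. Of 10 germline markers tested 7 were lower in ada2b ovaries and 1 higher, with summed levels of 244 to 358 RPKM in ada2b libraries and 512 to 548 in FRT libraries. All 9 chorion genes, expressed in the latest egg chambers, were lower, with sums of 963 to 2830 RPKM in ada2b libraries and 20076 to 22644 in FRT libraries. Of 11 muscle markers 10 rose, with sums of 254 to 416 RPKM in ada2b libraries and 58.5 to 76.8 in FRT libraries. Also higher were 5 of 6 follicle cell markers, 5 of 6 genes of the fat body list and 3 of 3 hemocyte markers. The fat body list includes the yolk protein genes Yp1, Yp2 and Yp3, so its rise cannot be read as fat body alone. Of 7 vitelline membrane genes 2 were lower and 0 higher. No marker of these lists was at 0 in all 6 libraries. In whole ovaries, fewer cells of a type and less RNA per cell cannot be told apart, and the part of these shifts in the lower Mediator values was not tested.

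The libraries labelled Ataxin-7 were compared with their FRT control to ask the same of the deubiquitinase module. The changes were smaller and went both ways. Of the 29 genes 10 were higher and 8 lower, where 20% of all genes rose and 24.3% fell. The median log2 fold change was -0.04, against -0.02 over all genes tested. By module the counts were, for the head, 1 higher and 4 lower of 7, for the middle 2 higher and 2 lower of 9, for the tail 4 higher and 2 lower of 8, and for the kinase module 2 higher of 4, while the scaffold gene MED14 was higher. No test compared the modules.

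MED26, the subunit that recruits elongation factors in mammals and the only member on chromosome 4, rose most. It had 23.8, 22.2 and 24.0 RPKM in the libraries labelled Ataxin-7, against 16.4, 17.3 and 16.2 in FRT libraries, a log2 fold change of 0.47 ± 0.05 (adjusted p = 0.000347, limma). MED21, which forms a hinge with MED7 in the middle module, had 69.5, 61.7 and 62.2 RPKM, against 44.6, 48.3 and 53.3 in FRT libraries, a log2 fold change of 0.40 ± 0.07 (adjusted p = 0.00493, limma). For MED14 the values were 20.7, 20.8 and 21.4 RPKM in the libraries labelled Ataxin-7 and 17.2, 17.0 and 16.4 in FRT libraries, a log2 fold change of 0.30 ± 0.04 (adjusted p = 0.000731, limma). These 3 were picked among the called genes whose groups did not overlap. For MED26 and MED14 the gap was wider than the spread within either group.

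MED20, a head subunit that binds MED18, fell most. It had 14.97, 15.7 and 15.9 RPKM in the libraries labelled Ataxin-7, against 21.8, 22.3 and 24.1 in FRT libraries, a log2 fold change of -0.52 ± 0.05 (adjusted p = 0.000274, limma). MED11 had 14.5, 13.5 and 15.9 RPKM, against 18.7, 17.5 and 19.1 in FRT libraries, a log2 fold change of -0.32 ± 0.06 (adjusted p = 0.00621, limma). MED10, a middle subunit, had 29.3, 30.2 and 31.7 RPKM, against 40.2, 34.2 and 39.0 in FRT libraries, a log2 fold change of -0.30 ± 0.06 (adjusted p = 0.0085, limma). These 3 too were picked among genes whose groups did not overlap, and FRT replicate 2 was low for MED10.

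Of the kinase module, Cdk8 and kto rose a little in the libraries labelled Ataxin-7. Cdk8 had 14.2, 13.3 and 13.3 RPKM there, against 11.7, 11.2 and 12.6 in FRT libraries, and kto had 7.11, 7.23 and 7.88 RPKM, against 6.26, 6.63 and 6.13 in FRT libraries. Both log2 fold changes were 0.19 ± 0.05, with adjusted p of 0.0212 and 0.0209 in limma, and these calls were lost in 4 and 5 of 16 alternatives. The other 2 genes missed the threshold, with overlapping groups. For skd the values were 8.15, 8.12 and 7.70 RPKM in the libraries labelled Ataxin-7 and 8.25, 8.51 and 8.01 in FRT libraries. For CycC they were 10.3, 10.7 and 9.98 RPKM in the libraries labelled Ataxin-7 and 11.6, 10.3 and 11.7 in FRT libraries.

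The calls for MED10, MED11, MED14, MED20, MED21, MED23 and MED26 held in all 16 alternatives, and the other 11 of the 18 were lost in at least 1. The number of higher genes dropped to 3, MED14, MED21 and MED26, when all 18 libraries shared an estimate of the spread. It was 6 without Ataxin-7 replicate 2 or 3 and 5 without FRT replicate 1 or 2, and the number of lower genes was 5 without Ataxin-7 replicate 2 or 3 or FRT replicate 1. Muscle markers were higher in these libraries as well, 8 of 9 of them, with sums of 97.6 to 125 RPKM in the libraries labelled Ataxin-7 and 63.9 to 78.8 in FRT libraries. Of 10 germline markers 4 were higher, with sums of 663 to 691 RPKM in the libraries labelled Ataxin-7 and 622 to 673 in FRT libraries. Of 9 chorion genes 4 were lower, with sums of 15760 to 18082 RPKM in the libraries labelled Ataxin-7 and 21968 to 24016 in FRT libraries. No marker was at 0 in all 6 libraries, and the part of these shifts in the Mediator values was not tested. RNA polymerase II had 2 higher and 2 lower of 12, and the general transcription factors 0 higher (0 also at an unadjusted p under 0.05 and with limma voom) and 4 lower of 16.

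In ovaries mutant for non-stop, the deubiquitinase itself, 5 Mediator genes were higher and 10 lower. Over all genes tested 25.7% rose and 25% fell. The median was -0.01 for the 29 genes and -0.01 for all genes tested. The genes that rose were MED21, MED26, MED14, skd and MED1, and those that fell were MED11, MED18, kto, MED17, MED19, MED16, MED28, MED31, CycC and MED9. In the head 3 of 7 fell, in the tail 2 of 8, in the middle 3 rose and 3 fell of 9, and in the kinase module 1 rose and 2 fell of 4.

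MED21 rose most in non-stop ovaries. It had 86.4, 96.7 and 87.3 RPKM there, against 47.7, 51.3 and 57.0 in FRT ovaries, a log2 fold change of 0.78 ± 0.09 (adjusted p = 0.00038, limma). On the exon scale it was the highest of the 29 genes in non-stop ovaries, at 95.4 ± 6.07 RPKM, and 4th in FRT ovaries, at 55.0 ± 4.95 RPKM (SD, n = 3 each). MED7, its partner in the hinge of the middle module, had a log2 fold change of -0.14 and was not called. The ratio of MED21 to MED7 was thus 2.52 to 3.17 in non-stop ovaries, against 1.43 to 1.58 in FRT ovaries. It was 2.65 to 3.03 in the libraries labelled Ataxin-7, against 2.20 to 2.39 in their FRT libraries, and 1.38 to 1.94 in ada2b ovaries, against 1.88 to 2.07 in FRT ovaries, where the groups overlapped.

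MED21 lies on arm 3L from 25114924 to 25115946 on the minus strand in BDGP6.54, and 257 bp of it, 25.1% of the gene, overlap Set1 on the opposite strand. Set1 encodes a histone H3 lysine methyltransferase. In non-stop ovaries Set1 was at 24.1 RPKM, against 13.02 in FRT ovaries, a log2 fold change of 0.84, close to the 0.78 of MED21. In the libraries labelled Ataxin-7 the changes of Set1 and MED21 were 0.38 and 0.40, and in ada2b ovaries -0.38 and -0.48. Both genes were called in all 3 comparisons. Reads were assigned by strand in most pairs examined, but no read of the overlap itself was followed. The opposite-strand neighbours of MED14 and MED1 did not move with them, as CG13893 was at -0.65 where MED14 was at 0.44 in non-stop ovaries, and Alg11 at -0.01 where MED1 was at 0.28.

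MED26 had 31.4, 38.6 and 33.4 RPKM in non-stop ovaries, against 21.1, 24.2 and 27.4 in FRT ovaries, and MED14 had 30.3, 28.6 and 29.7 RPKM, against 19.5, 21.9 and 23.1 in FRT ovaries. The log2 fold changes were 0.49 ± 0.11 and 0.44 ± 0.07, with adjusted p of 0.00823 and 0.00229 in limma. Both genes, like MED21, were picked among the called genes whose groups did not overlap. MED1 was called at 0.28 ± 0.10 (adjusted p = 0.0438, limma), a call that was lost in 10 of 16 alternatives. MED4, of the middle module, had 18.2, 19.4 and 27.8 RPKM in non-stop ovaries, against 16.5, 16.3 and 18.01 in FRT ovaries, and was not called. Its highest mutant library, replicate 3, stood well apart from the other 2.

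The deepest falls in non-stop ovaries were in the head. MED11 had 13.8, 13.2 and 14.5 RPKM there, against 23.4, 24.5 and 24.9 in FRT ovaries, a log2 fold change of -0.77 ± 0.06 (adjusted p = 0.000146, limma). MED18 had 28.98, 25.5 and 25.1 RPKM, against 39.7, 44.5 and 43.8 in FRT ovaries, a log2 fold change of -0.67 ± 0.08 (adjusted p = 0.000531, limma). Both genes were picked for groups that did not overlap, and the groups were tight and far apart. MED22, which pairs with MED11, was at 0.20 and MED20, which pairs with MED18, at -0.0014, and neither was called. MED17 and MED19 fell by 0.44 and 0.43 on the log2 scale, and MED16, MED28, MED31 and MED9 by 0.30, 0.29, 0.29 and 0.23. MED11 lies on arm 3L from 18745856 to 18746623 in BDGP6.54, 124 kb from the mutated gene. Of the 12 Mediator genes on that arm 4 rose and 3 fell in non-stop ovaries, where 28.6% of all genes tested on the arm rose and 23.4% fell, and of the 17 elsewhere 1 rose and 7 fell.

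The kinase module split in non-stop ovaries. The gene skd, on arm 3L from 20992814 to 21027434, had 7.38, 7.75 and 7.10 RPKM in non-stop ovaries, against 5.26, 5.10 and 5.55 in FRT ovaries, a log2 fold change of 0.42 ± 0.07 (adjusted p = 0.00218, limma). In contrast kto, on the same arm from 19836614 to 19844944, had 10.4, 9.68 and 9.86 RPKM, against 11.7, 15.7 and 14.8 in FRT ovaries, a log2 fold change of -0.45 ± 0.11 (adjusted p = 0.0102, limma). The lowest FRT library of kto, replicate 1, was closer to the mutant libraries than to the other FRT libraries. CycC had 30.0, 30.7 and 31.8 RPKM in non-stop ovaries, against 35.4, 39.8 and 38.0 in FRT ovaries, a log2 fold change of -0.28 ± 0.07 (adjusted p = 0.00975, limma). Cdk8 had 14.6, 13.9 and 13.7 RPKM, against 11.7, 12.2 and 13.5 in FRT ovaries, and missed the threshold at 0.17 ± 0.07 (adjusted p = 0.0838, limma).

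Ratios within a library do not depend on the scaling of that library. The ratio of skd to kto, on the exon scale, was 1.95 ± 0.133 in non-stop ovaries and 1.01 ± 0.167 in FRT ovaries (SD, n = 3 each), with no overlap. It was 2.84 ± 0.241 in the libraries labelled Ataxin-7 and 3.42 ± 0.0449 in FRT libraries, also with no overlap but in the other direction. In ada2b ovaries, where both genes fell, the ratio was 1.68 ± 0.0909, against 1.65 ± 0.115 in FRT ovaries. The exact two-sided permutation p was 0.1 for non-stop, 0.1 for Ataxin-7 and 0.9 for ada2b, and 0.1 is the smallest that 3 libraries against 3 can give. The ratio of Cdk8 to CycC was 0.463 ± 0.0281 in non-stop ovaries and 0.334 ± 0.0245 in FRT ovaries, and 1.33 ± 0.0703 in the libraries labelled Ataxin-7 and 1.07 ± 0.0433 in FRT libraries. In ada2b ovaries it was 0.538 ± 0.0948, against 0.487 ± 0.0296 in FRT ovaries, and the exact permutation p was 0.1 for non-stop, 0.1 for Ataxin-7 and 0.5 for ada2b. The FRT groups themselves differed widely in both ratios, skd to kto being 1.65, 3.42 and 1.01 and Cdk8 to CycC 0.487, 1.07 and 0.334 in the controls of ada2b, Ataxin-7 and non-stop.

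**Figure D4:**
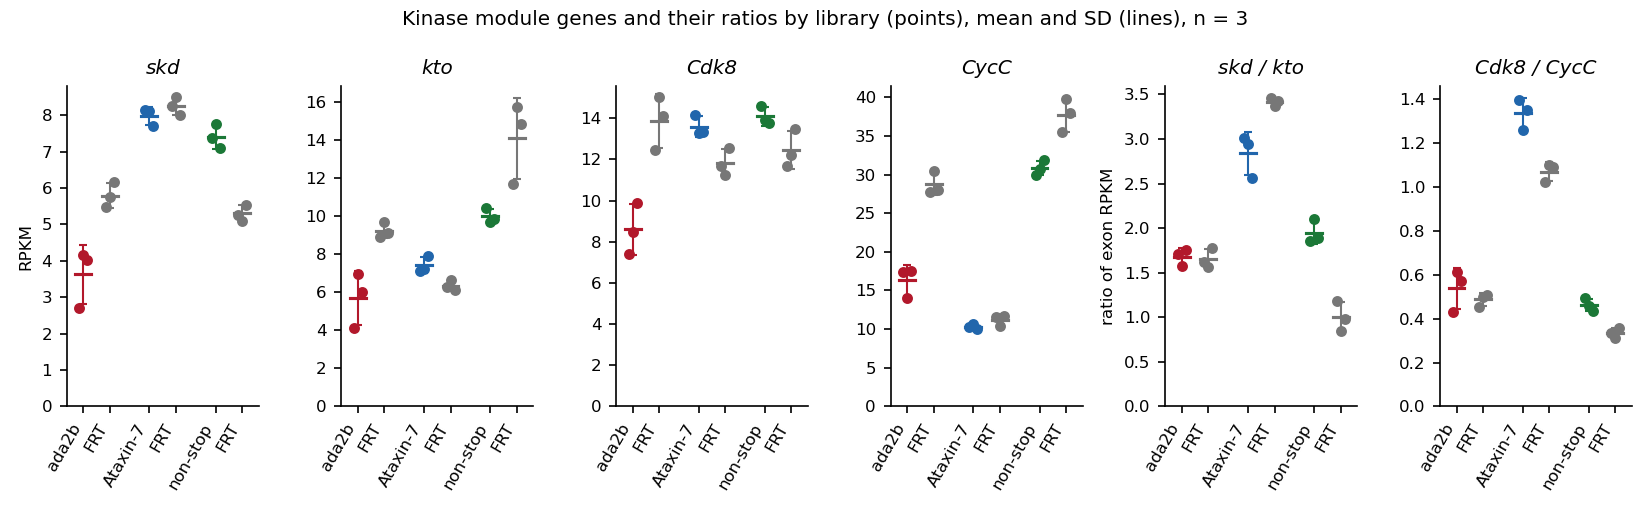
RPKM of the 4 kinase module genes, and the ratios of skd to kto and Cdk8 to CycC on the exon scale, in each of the 18 libraries, with mutant libraries (coloured) left of the FRT libraries (grey) of the same experiment and lines for the mean and SD. In non-stop ovaries skd is higher and kto lower, so that their ratio is 1.95 there and 1.01 in FRT ovaries, and the FRT groups differ among themselves.

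The calls for MED11, MED14, MED17, MED18, MED19, MED21, MED26, MED31, kto and skd in non-stop ovaries held in all 16 alternatives. Without FRT replicate 2, 6 genes were lower in place of 10. Of 10 germline markers 5 were higher and 1 lower, with sums of 469 to 534 RPKM in non-stop libraries and 463 to 494 in FRT libraries, and 2 of 9 chorion genes were higher, with sums of 9069 to 11470 RPKM in non-stop libraries and 3658 to 8123 in FRT libraries. The 7 follicle cell markers summed to 17.3 to 30.5 RPKM in non-stop libraries and 31.3 to 40.9 in FRT libraries, and the 5 hemocyte markers to 9.90 to 13.1 RPKM in non-stop libraries and 20.9 to 31.9 in FRT libraries, both without overlap. Of the 2 tested in each of these lists, 1 follicle marker was higher and 1 lower, and 1 hemocyte marker was lower. No marker was at 0 in all 6 libraries, and their part in the Mediator values was not tested. RNA polymerase II had 4 higher and 3 lower of 12, including its largest subunit Polr2A at 33.5 ± 1.85 RPKM in non-stop ovaries and 24.1 ± 0.571 in FRT ovaries. Of the general transcription factors 3 of 16 fell and 0 rose (0 also at an unadjusted p under 0.05 and with limma voom). CycT, the cyclin of the elongation kinase P-TEFb, rose by 0.62 in non-stop ovaries and 0.18 in the libraries labelled Ataxin-7 and had -0.48 in ada2b ovaries, each called.

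Both deubiquitinase module experiments, which share no library, called 10 of the same Mediator genes, 55.6% of those called in Ataxin-7 and 66.7% of those called in non-stop. Over all genes these shares were 62.6% and 54.2%. Of these, 7 went the same way, with MED14, MED21 and MED26 higher and MED9, MED11, MED18 and MED28 lower in both. MED16, MED17 and kto went opposite ways. Over all genes tested, 86.2% of the genes called in both went the same way. An interaction term over the 12 libraries gave the difference of the Ataxin-7 and non-stop changes for each gene. It passed for 12 of the 29 genes, where 37.5% of all genes passed. The Ataxin-7 change was above the non-stop change for MED11, MED16, MED17, MED18, MED31 and kto, and below it for MED1, MED10, MED20, MED21, MED23 and skd. This split of 6 and 6 was 11 and 5 without FRT replicate 1 of the non-stop experiment, 6 and 3 without FRT replicate 3 of the Ataxin-7 experiment, and 9 and 4 with libraries scaled to a common median. For MED26 the difference was -0.03 ± 0.13 and for MED14 -0.14 ± 0.08, and neither passed.

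**Figure D5:**
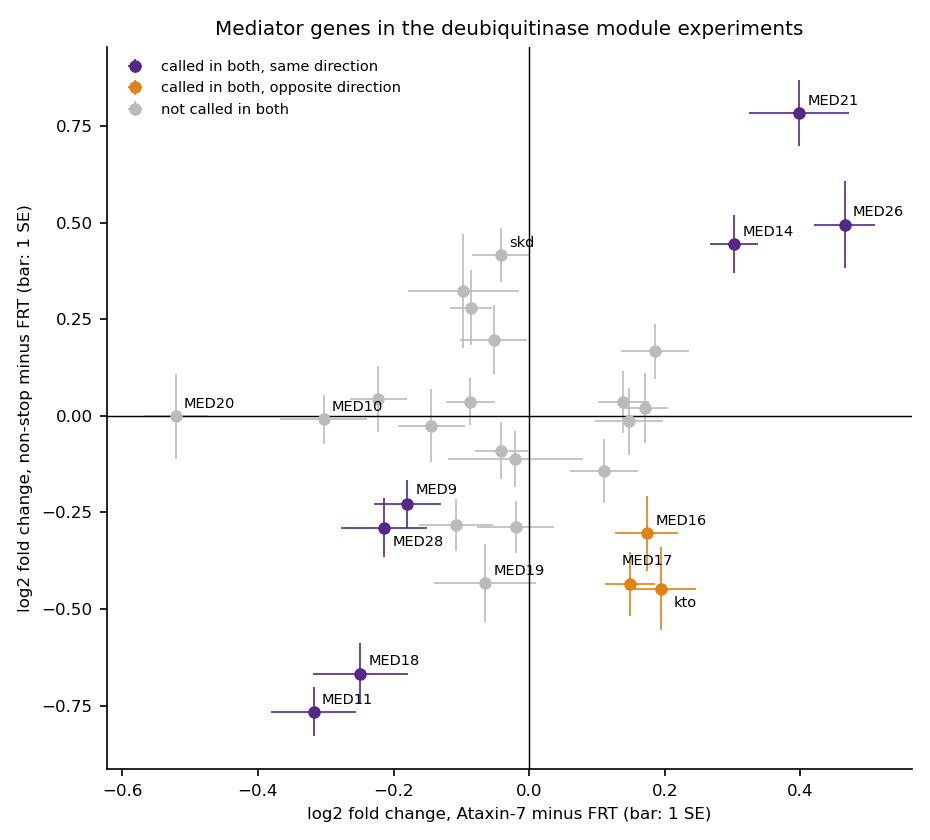
Log2 fold change of each Mediator gene, mutant minus FRT control, in the libraries labelled Ataxin-7 (horizontal) and in non-stop ovaries (vertical), with bars of 1 SE. The 7 purple genes were called in both in the same direction, the 3 orange genes, MED16, MED17 and kto, in opposite directions, and grey genes were not called in both.

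The change in ada2b differed from that in non-stop for 19 of the 29 genes, where 70.6% of all genes passed, being lower for 17 and higher for 2, MED9 and MED11, of which only 1 was left without most of the libraries in turn. With common-median scaling 11 were lower and 6 higher. It differed from that in the libraries labelled Ataxin-7 for 19 genes, where 68.5% of all genes passed, and was lower for all 19 with values as deposited, against 13 lower and 4 higher with common-median scaling and 18 lower and 2 higher without ada2b replicate 1. As deposited 0 were higher, also at an unadjusted p under 0.05 (0 genes) and with limma voom (0 genes). The tests of ada2b against non-stop and against Ataxin-7 share the ada2b libraries. MED14, MED21 and MED26, which rose in both other mutants, had ada2b changes of -0.90, -0.48 and -0.47. Called in all 3 comparisons were 8 genes, MED11, MED14, MED17, MED18, MED21, MED26, MED28 and kto, of which MED11, MED18 and MED28 were called lower in each with values as deposited. In ada2b ovaries the call of MED11 was lost in 8 of 16 alternatives, where it turned to 0.00699 under common-median scaling, and that of MED28 in 2, at -0.02 under that scaling. In the libraries labelled Ataxin-7 the calls of MED28 and MED18 were lost in 6 and 4 of 16 alternatives, and in non-stop ovaries that of MED28 in 2. MED4 and MED7 were called in none, 5 genes in 1 comparison and 14 in 2. Calls were common over all genes tested, with 67.9% called for ada2b, 50.8% for non-stop and 44.3% for Ataxin-7. How many of all genes were called in 3, 2, 1 or 0 comparisons was not counted. Whether 8 of 29 called in all 3, or 3 called lower in each, is unusual is thus not known.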

How the data were processed

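Poly(A) RNA of whole ovaries was measured in 18 libraries of 3 experiments, each with 3 mutant and 3 FRT control libraries, grouped by their labels. The authors deposited RPKM values. Per the labels they used CASAVA 1.8.2, TopHat2 2.0.13 and edgeR 3.14.0 on the dm3 build, and the counting tool is not given in the sources used here. For 13903 of the 13903 genes above 0, all values were whole reads within a tolerance of 0.01. Names and positions came from BDGP6.54 (Ensembl release 115), which holds 15002 of the 15682 identifiers.

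For each experiment limma (version 3.58.1, R 4.3.3) was fitted to log2 of RPKM plus a pseudocount of 1, with a mean-variance trend, for every gene averaging at least 1 RPKM in the 6 libraries. A gene was called where its p, adjusted by Benjamini-Hochberg over every gene in the fit, was under 0.05. This scale understates the change of low genes. Differences between changes were interaction terms over 12 libraries. Ratios were tested with exact permutation tests (numpy 2.4.6), and fits were tested on simulated data. Replicates are biological triplicates per the extraction protocol. The p-values of limma rest on the spread between them, moderated towards a trend over all genes in the fit. Also tried were no filter, a filter at 5 RPKM, a pseudocount of 0.1, quantile normalization, common-median scaling, RPKM per kilobase of exons, no trend, a replicate block, an 18-library fit, limma voom on the reads, and each library left out.

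The Mediator genes and the other lists were chosen with earlier results of these data known. Given library by library were the kinase module and, in each comparison, the 3 highest and 3 lowest called genes whose groups did not overlap; Set1, Alg11, CG13893, slx1, CG42518, MED4 and the dimer partners were chosen after their values were seen, as was the check of strand. The list symbols vas, nos, br, wupA, Tfb2 and Tfb5 were not matched. GC content, promoters and sequences were not analysed here. Python 3.11.15 with pandas 2.3.3 served for summaries, and matplotlib 3.10.9 for plots.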

Additional observations from a re-analysis of the deposited data

Results flagged for a closer look

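Differences between the changes of 2 mutants passed the interaction test of limma for 19 Mediator genes in ada2b minus non-stop, 12 in Ataxin-7 minus non-stop and 19 in ada2b minus Ataxin-7, out of 29 each. Over all genes 70.6%, 37.5% and 68.5% passed, so these counts are near the background. The genes named next were also called in both comparisons, in opposite directions, and values are differences of log2 fold changes, the first mutant's minus the second's.

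Between ada2b and non-stop these were MED14 (-1.35), MED1 (-1.28), MED21 (-1.26), skd (-0.99) and MED26 (-0.97), all lower in ada2b ovaries and higher in non-stop ovaries than in their FRT controls. Between Ataxin-7 and non-stop they were kto (0.64), MED17 (0.58) and MED16 (0.48), higher in the libraries labelled Ataxin-7 and lower in non-stop ovaries. Between ada2b and Ataxin-7 they were MED14 (-1.20), MED15 (-0.94), MED24 (-0.94), MED26 (-0.94), MED21 (-0.87), kto (-0.83), Cdk8 (-0.82), MED17 (-0.74) and MED25 (-0.61), lower in ada2b ovaries and higher in the libraries labelled Ataxin-7. Several of these calls were not stable. In Ataxin-7 those of MED25, MED24, MED16, MED17 and MED15 were lost in 11, 6, 6, 3 and 1 of 16 alternatives. The call of MED16 in non-stop was lost in 5, and that of MED25 in ada2b in 1.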

How the results depend on the processing

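In ada2b, common-median scaling left 15 genes lower and 2 higher with a median of -0.22, and quantile normalization left 18 lower with a median of -0.31; MED8 and MED11 changed sign under common-median scaling (0.0675 and 0.00699) and under quantile normalization (0.0248 and 0.00288). In Ataxin-7, 3 genes were higher in the fit of all 18 libraries. With each library left out in turn, ada2b gave 0 higher, 20 to 26 lower and a median of -0.54 to -0.43, Ataxin-7 gave 5 to 9 higher and 5 to 7 lower, and non-stop 4 to 5 higher, 6 to 11 lower and a median of -0.10 to 0.01; differences were called for 18 to 20 genes in ada2b minus non-stop, 9 to 16 in Ataxin-7 minus non-stop and 17 to 21 in ada2b minus Ataxin-7. The cause of these shifts was not tested. For the fits with a library left out, quantile normalization and the 18-library fit, the share of all genes called lower or higher is not given here. These counts, here and above, thus do not show how far the background moved with them. Common-median scaling also moved the share of higher calls over all genes, to 59.7% against 38.2% in ada2b minus non-stop (6 Mediator genes higher and 11 lower), 58.8% against 38.4% in ada2b minus Ataxin-7 (4 higher and 13 lower) and 58% against 44.9% in Ataxin-7 minus non-stop (9 higher and 4 lower). Among values of single named genes, 244 kept their direction and their side of the threshold under the other settings and 11 lost the call, and with a library left out 137 kept both and 19 lost the call.

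Replicate numbers are shared between the groups of an experiment. Deviations of same-numbered libraries correlated at -0.38 to 0.13, and those of differently numbered libraries at -0.42 to 0.49. With 3 libraries per group these values cannot decide whether the numbers pair them. Blocking on replicate, 23 genes were lower in ada2b, 8 higher and 6 lower in Ataxin-7, and 5 higher and 9 lower in non-stop, and 19, 9 and 20 differed between the mutants. The shares of all genes under this block are not given here, so these counts do not show how far the background moved. Each gene had at least 230 reads in every library, and the effect of depth on the calls was not tested.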

Other observations

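Reads on the Mediator genes summed to 893, 1251 and 1210 RPM, reads scaled by library size alone, in ada2b libraries, against 1682 to 1713 in FRT libraries. The sum was 2173 to 2216 RPM in non-stop libraries, against 1663 to 1868 in FRT libraries, and 1683 to 1718 in the libraries labelled Ataxin-7, against 1585 to 1637 in FRT libraries. The long genes skd and MED26 alone made up 23.2% to 30.9% of these reads, depending on the group. Without them the range was 1492 to 1551 in non-stop libraries, against 1271 to 1420 in FRT libraries, and 1165 to 1183 in the libraries labelled Ataxin-7, against 1126 to 1184 in FRT libraries, where it overlapped. These sums leave out the scaling by the submitters. Its library totals were 1.06 to 1.08 times the reads on genes in non-stop libraries and 0.902 to 0.971 times in their FRT libraries. On the deposited scale the mean log2 of RPKM + 1 over the 29 genes was 4.60 in non-stop and 4.65 in FRT libraries, so the rise in RPM was not seen there.

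Long and short Mediator genes moved differently in the libraries labelled Ataxin-7, a split looked for after the values were seen. Of the 12 genes with at least 2000 bp of exons 8 were higher and 2 lower, and of the 17 shorter genes 2 were higher and 6 lower. All genes tested leaned the same way, with 24.7% higher and 17.7% lower among the longer genes and 15.4% higher and 31.3% lower among the shorter. In non-stop the counts were 4 higher and 3 lower of 12 longer genes, and 1 higher and 7 lower of 17 shorter genes, where 32.1% of all longer genes were higher and 19.4% lower, and 20.1% of all shorter genes were higher and 30.1% lower. In ada2b 10 of 12 longer and 14 of 17 shorter genes were lower, against 48.7% of all longer and 36.7% of all shorter genes. The cause was not tested.

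SREBP, a transcription factor that the kinase module phosphorylates, was at 17.5 ± 0.471 RPKM in the libraries labelled Ataxin-7 and 25.3 ± 1.65 in their FRT libraries (SD, n = 3 each), a log2 fold change of -0.51. It was not called in ada2b, at 0.07, or in non-stop, at -0.18.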
